A study of Mus musculus with 12 samples.

Results

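The comparison described here is the effect of a model of chronic kidney disease (CKD) on isolated mouse cardiomyocytes when both arms had received an injection of JV001. It was taken by its labels: the 3 CKD JV001 libraries against the 3 sham JV001 libraries, 6 of the 12 libraries of the series, described over all genes. Polyadenylated RNA was sequenced from cardiomyocytes of wild-type (WT) C57BL6 hearts. The sham JV001 mice had a sham operation, given with a duration of 12 weeks, and JV001. The CKD JV001 mice had AngII (angiotensin II, a hormone that raises blood pressure), a high salt diet and uninephrectomy (removal of a kidney), also with a duration of 12 weeks, and JV001. JV001 was thus present in both groups; the labels name it by this code alone, and the title of the series concerns telomere recapping by gene therapy. The other 6 libraries came from sham and CKD mice given saline (12 weeks for the sham mice, no duration stated for the CKD mice). They entered the choice of genes tested, the scaling of the libraries, the estimate of the spread and the last comparison. Whether each replicate is a different mouse is not stated, so p-values rest on the spread among these samples alone, and that spread may be technical.

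Total counts ran from 30923371 to 34351304 in the 3 CKD JV001 libraries and from 32684117 to 34465822 in the 3 sham JV001 libraries. CKD JV001 replicate 3 stood apart from its group. On the first principal component, which held 52.3% of the variance, it lay at 138, against 48.0 and 50.3 for CKD JV001 replicates 1 and 2 and -38.9 to 0.243 for sham JV001. Replicates 1 and 2 of CKD JV001 were closer to each other than the other pairs within these groups: 39.98% of their genes differed beyond sampling noise (chi-square p under 0.05, genes with at least 50 reads in the pair), against 80.4% and 80.9% in the pairs with replicate 3 and 53.5% to 57.6% within sham JV001. Results are therefore given per library, and with and without CKD JV001 replicate 3.

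Cardiomyocytes are the contracting cells of the heart. They draw most of their energy from fatty acids burned in mitochondria, and beat by cycling calcium between the sarcoplasmic reticulum and the sarcomere. Long pressure and volume load is known to bring fibroblasts to lay down matrix, to recruit immune cells and to shift the muscle cells away from fatty acid use.

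Of 15004 genes tested in all 12 libraries, 3 passed edgeR's quasi-likelihood test at an adjusted p under 0.05 (0.0200% of genes), and all 3 fell in CKD JV001. Tmem100, a transmembrane protein known from endothelial BMP signalling, had 31.4, 22.7 and 27.7 CPM (reads of the gene scaled to a common library size, with TMM factors) in sham JV001 replicates 1 to 3. In CKD JV001 it had 10.4, 9.34 and 10.2 CPM, a log2 fold change of -1.45 (SE 0.17, edgeR adjusted p 0.0353). Each of its CKD JV001 libraries lay under every sham JV001 library, and the CKD JV001 values were close together.

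Tmem82, another transmembrane protein, fell from 27.6, 17.8 and 24.8 CPM to 8.55, 9.42 and 8.48 CPM (log2 fold change -1.41, SE 0.17, edgeR adjusted p 0.0353). Cenpf, a kinetochore protein of dividing cells, fell from 21.4, 19.6 and 34.5 CPM to 6.27, 4.35 and 7.19 CPM (log2 fold change -2.08, SE 0.27, edgeR adjusted p 0.0353). In neither gene did the groups overlap. Within its group, CKD JV001 replicate 3 was the lowest for Tmem82, the highest for Cenpf and between the others for Tmem100. These calls depended on the libraries kept: leaving out sham JV001 replicate 1 or 3, CKD JV001 replicate 1, 2 or 3, CKD saline replicate 1 or 2, or sham saline replicate 2 or 3 gave 0 calls, leaving out sham saline replicate 1 or sham JV001 replicate 2 gave 4 and 2 calls, both sets lower, and leaving out CKD saline replicate 3 gave the counts stated below. Without CKD JV001 replicate 3 the 3 genes had log2 fold changes of -1.47, -1.38 and -2.24, with an edgeR adjusted p of 0.0799 each.

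The next genes by p did not pass. Lgals4, a galectin, had 82.1, 79.8 and 69.4 CPM in sham JV001 and 26.2, 23.9 and 16.1 CPM in CKD JV001 (log2 fold change -1.80, SE 0.25, edgeR adjusted p 0.0553). Cspg4b had 5.50, 5.27 and 5.42 CPM in sham JV001 and 1.14, 1.72 and 0.998 CPM in CKD JV001 (-2.06, SE 0.29, edgeR adjusted p 0.0553). These 2 genes also had no overlap between the groups.

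**Figure D1:**
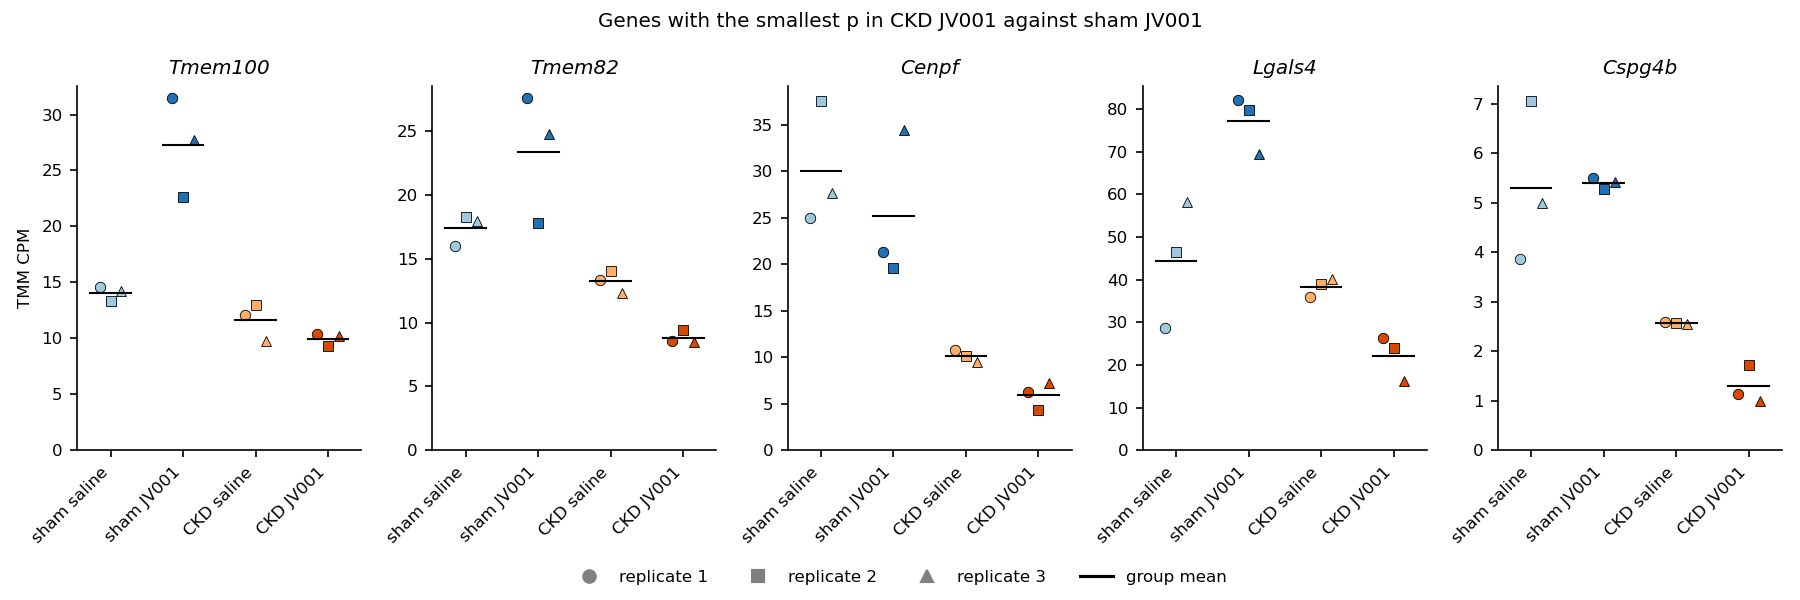
TMM CPM (vertical axis, linear from 0) of the 5 genes with the smallest p, in each library of the 4 groups; symbols are replicates and bars are group means. In every panel the 3 CKD JV001 libraries lie under the 3 sham JV001 libraries, and Tmem100 lies between 9.34 and 10.4 CPM in CKD JV001.

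The small count of calls stood beside many genes with separated groups. At an unadjusted p under 0.05 there were 4120 genes (27.5%), 2214 higher and 1906 lower in CKD JV001, and 275 higher and 434 lower at an adjusted p under 0.10. The 3 CKD JV001 libraries lay above all 3 sham JV001 libraries in 3439 genes (22.9% of genes tested) and below them in 3013 (20.1%). These shares are the background for the counts of list members below, where "above" and "below" mean that the groups do not overlap. The median log2 fold change over all genes was 0.02, and 0.03 without CKD JV001 replicate 3.

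The number of calls turned on which libraries entered the fit. Fitted on the 6 JV001 libraries alone, edgeR called 593 genes higher and 199 lower of 14373 tested (4.13% and 1.38%, or 5.51% together). All 792 had the same sign in the 12-library fit and groups that did not overlap. Both fits take these group levels from the same libraries, so neither point is independent of the calls. Without CKD saline replicate 3, a library outside the comparison, the 12-library fit called 874 higher and 738 lower of 15459 (5.65% and 4.77%). DESeq2 called 1050 higher and 718 lower. Genes that pass in the 6-library fit are named as such below, and no list member other than Cenpf passed in the 12-library fit.

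Markers of several cell types other than the cardiomyocyte were higher in CKD JV001. The summed level of the 14 fibroblast markers was 925, 1375 and 661 CPM in sham JV001 and 3049, 3072 and 4062 CPM in CKD JV001, and all 14 lay above. Of them, 9 passed in the 6-library fit. Dcn, which encodes decorin, had 174, 232 and 112 CPM in sham JV001 and 519, 529 and 688 CPM in CKD JV001 (log2 fold change 1.74, SE 0.54, edgeR adjusted p 0.108, 6-library adjusted p 0.034).

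The summed endothelial markers were 2029.5, 1892 and 1684 CPM in sham JV001 and 3404, 3429 and 4280.0 CPM in CKD JV001, with 12 of 14 above and 8 called in the 6-library fit. Tek, the angiopoietin receptor, had 52.8, 52.4 and 53.6 CPM in sham JV001 and 113, 115 and 122 CPM in CKD JV001 (1.14, SE 0.53, edgeR adjusted p 0.187, 6-library adjusted p 0.0333). Macrophage and monocyte markers summed to 159, 320.1 and 95.7 CPM in sham JV001 and 607, 600.1 and 1168 CPM in CKD JV001, with 16 of 19 above. All 3 sums were higher in each CKD JV001 library than in every sham JV001 library, and CKD JV001 replicate 3 was the highest.

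Csf1r, the receptor of a macrophage growth factor, had 18.4, 30.3 and 13.2 CPM in sham JV001 and 62.6, 70.1 and 105 CPM in CKD JV001. Plac8, found in inflammatory monocytes, had 0.186, 0.168 and 0.0303 CPM in sham JV001, a few reads a library, and 2.63, 2.39 and 9.54 CPM in CKD JV001. Haemoglobin and other erythroid markers summed to 21.3, 52.4 and 11.3 CPM in sham JV001 and 144, 136 and 335 CPM in CKD JV001, and all 5 of the tested erythroid markers lay above. B cell markers were low in both groups, 1.17, 2.47 and 3.64 CPM against 11.4, 11.7 and 10.6 CPM, with 7 of 8 above.

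The summed neutrophil markers set CKD JV001 replicate 3 apart. Their sum was 24.0, 65.8 and 62.6 CPM in sham JV001 and 78.4, 69.1 and 491 CPM in CKD JV001. Member by member, 9 of 12 tested lay above and 0 below (background 22.9% and 20.1%), and 0 passed in the 6-library fit. The list's median log2 fold change was 4.62, or 1.78 without CKD JV001 replicate 3. S100a9, a calcium-binding protein abundant in neutrophils, had 0.526, 1.68 and 0.333 CPM in sham JV001 and 6.11, 6.45 and 140.1 CPM in CKD JV001. Ngp, a neutrophil granule protein, had 0 reads in each sham JV001 library, which allows up to 0.0841 to 0.0928 CPM (3 reads), and 0.728, 0.981 and 20.2 CPM in CKD JV001. Such limits cover counting error only. Of 15 neutrophil symbols found, 12 were tested. With 0 sham JV001 reads, Ngp could enter the genes tested only through other groups, and it could not have lain below. Genes near 0 in sham JV001, among them Plac8 and several B cell markers, share this limit in part. For such genes the background shares are not a like measure.

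The markers of the labelled cell type were abundant but lower. Ventricular cardiomyocyte markers summed to 80164, 77422 and 86117 CPM in sham JV001 and 56662, 56551 and 24678 CPM in CKD JV001, with 9 of 12 below. Their median log2 fold change was -0.69, and -0.37 without CKD JV001 replicate 3. Myh6, the main myosin heavy chain of the adult mouse ventricle, had 31127, 29289.8 and 29406 CPM in sham JV001 and 16566, 17344 and 8967 CPM in CKD JV001. In bulk samples, fewer cells of a type and less RNA per cell cannot be told apart. The part of these marker shifts in the gene lists that follow was not tested.

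Atrial markers were uneven within sham JV001, where replicate 2 was highest: 1542, 3305 and 904 CPM against 1071, 1023 and 713 CPM in CKD JV001, with 5 of 9 below. Smooth muscle and pericyte markers summed to 2920.4, 2560.2 and 2742 CPM in sham JV001 and 2794, 2761 and 3250.0 CPM in CKD JV001, a sum whose groups overlap. Member by member, 7 of 12 lay above and 0 below, with a median of 1.09 (0.65 without CKD JV001 replicate 3), and Pdgfrb and Cspg4 passed in the 6-library fit. Epicardial and mesothelial markers summed to 48.8, 95.6 and 50.1 CPM in sham JV001 and 128, 132 and 98.5 CPM in CKD JV001, but 2 of 12 members lay above, a share under the 22.9% of all genes. T and NK cell markers, 0.711, 1.43 and 1.39 CPM against 3.45, 4.75 and 8.83 CPM, rested on few reads. Of the adipocyte markers, Lep was at 0 reads in all 6 libraries, and Cfd, Cidec and Ucp1 reached at most 2.25 CPM. The tested markers of the other lists had reads in at least 1 of the 6 libraries. Among the 4 Y-linked genes in the list that checks the animals' sex, all had reads in all 6 libraries, and 3 lay below.

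**Figure D2:**
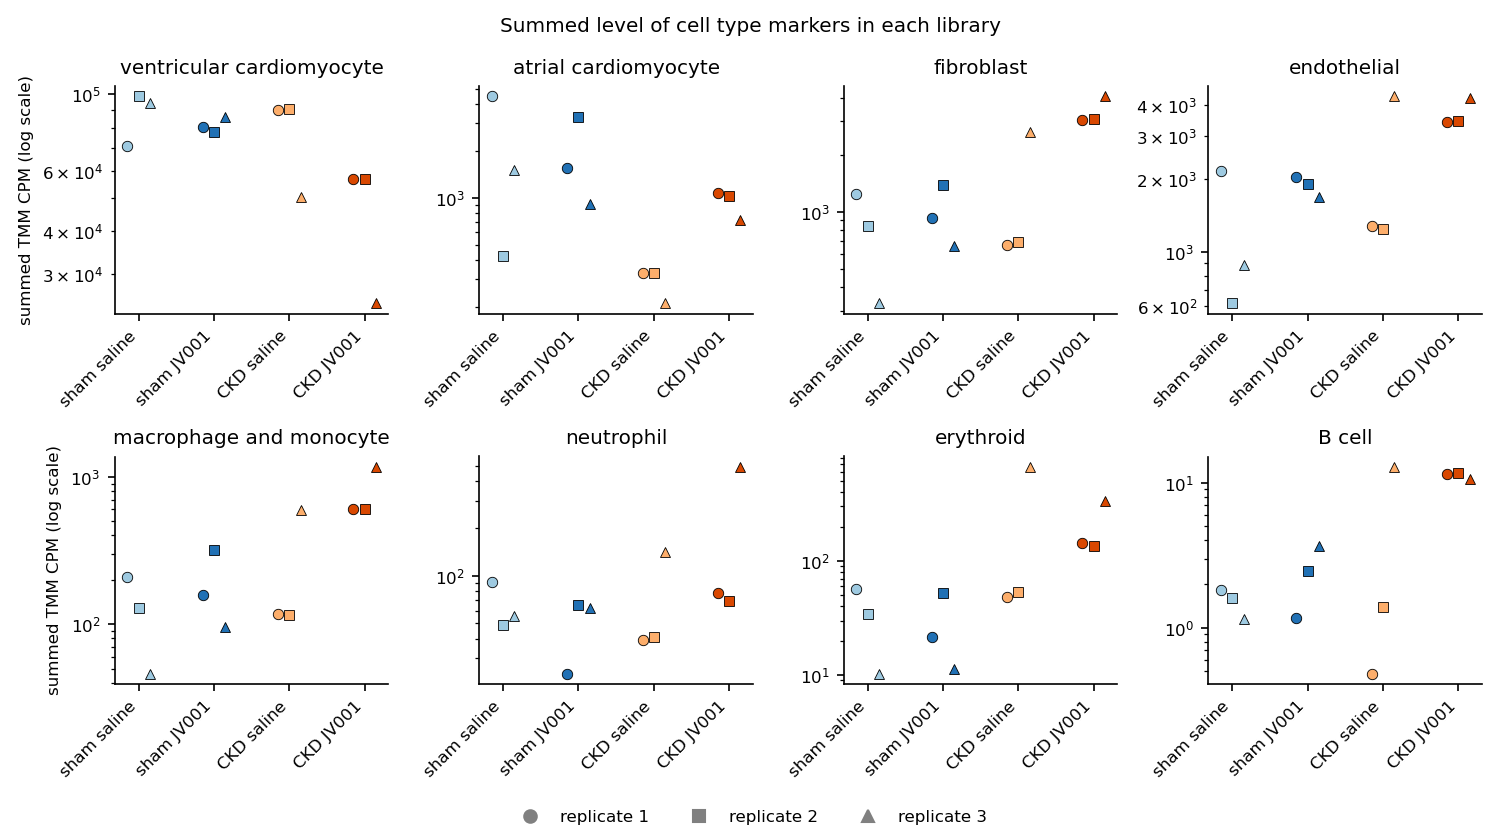
Summed TMM CPM of 8 cell type marker lists (vertical axes, log scale) in each library of the 4 groups; symbols are replicates. Fibroblast, endothelial and macrophage sums are higher in all 3 CKD JV001 libraries than in sham JV001, and neutrophil markers reach 490.7 CPM in CKD JV001 replicate 3.

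Extracellular matrix genes, the longest of the 45 lists by genes tested, also had the most calls in the 6-library fit. Of 48 tested, 40 lay above and 0 below (background 22.9% and 20.1%). In the 6-library fit 23 passed, all higher, against 4.13% of all genes. The share called was larger for fibroblast (9 of 14) and endothelial (8 of 14) markers. The list's median log2 fold change was 1.50, or 1.29 without CKD JV001 replicate 3. Fibroblast markers moved with this list, and Dcn, Lum, Col1a1, Col1a2, Col3a1 and Postn are in both.

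Ltbp2, a microfibril protein related to the proteins that bind latent TGF-beta, had 1.30, 1.85 and 2.21 CPM in sham JV001 and 23.7, 24.7 and 13.6 CPM in CKD JV001 (log2 fold change 3.53, SE 0.51, edgeR adjusted p 0.0553, 6-library adjusted p 0.0288). Cilp, a matrix protein first known from cartilage, had 3.12, 7.49 and 2.97 CPM in sham JV001 and 73.5, 71.6 and 37.2 CPM in CKD JV001 (3.74, SE 0.71, edgeR adjusted p 0.0689). Thbs4, a thrombospondin, had 3.83, 2.69 and 3.39 CPM in sham JV001 and 28.5, 33.0 and 17.9 CPM in CKD JV001 (3.00, SE 0.58, edgeR adjusted p 0.0786). In these 3 genes CKD JV001 replicate 3 was the lowest of its group and still lay above sham JV001.

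Postn, periostin of activated fibroblasts, had 16.7, 16.4 and 12.2 CPM in sham JV001 and 58.3, 64.9 and 72.1 CPM in CKD JV001 (2.11, SE 0.50, 6-library edgeR adjusted p 0.0288). Comp, another thrombospondin family member, had 0.897, 4.35 and 0.697 CPM in sham JV001 and 29.1, 28.6 and 13.3 CPM in CKD JV001 (3.57, SE 0.81). Fbln1, fibulin 1, had 40.2, 66.9 and 33.7 CPM in sham JV001 and 141, 147 and 177 CPM in CKD JV001 (1.72, SE 0.39). The fibrillar collagens had smaller log2 fold changes, 1.53 and 1.20, with Col1a1 at 33.5, 52.2 and 20.2 CPM in sham JV001 and 95.8, 102 and 108 CPM in CKD JV001 and Col3a1 at 54.8, 98.2 and 43.0 CPM in sham JV001 and 136, 142 and 173 CPM in CKD JV001. The 8 members whose groups overlapped were Eln, Thbs1, Ccn1, Ccn2, Ltbp1, Lox, Timp3 and Adamts1. Ccn2, a matricellular growth factor, had 269, 208 and 93.3 CPM in sham JV001 and 134, 122 and 78.9 CPM in CKD JV001.

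In the TGF-beta pathway, 12 of 20 members lay above and the list median was 0.66 (log2 fold change), and 5 passed in the 6-library fit: Tgfb3, Tgfbr2, Tgfbi, Eng and Ltbp4. Eng is also an endothelial marker. The ligand Tgfb3 had 11.9, 16.0 and 10.5 CPM in sham JV001 and 29.8, 24.0 and 30.1 CPM in CKD JV001 (6-library edgeR adjusted p 0.0362). The receptor Tgfbr2 had 41.5, 46.0 and 30.9 CPM in sham JV001 and 73.3, 80.2 and 119 CPM in CKD JV001 (6-library edgeR adjusted p 0.045). The ligand Tgfb1 had 19.7, 20.0 and 23.2 CPM in sham JV001 and 40.1, 38.7 and 103 CPM in CKD JV001, highest in CKD JV001 replicate 3.

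Complement genes, which mark and clear targets in innate immunity, had 14 of 17 members above, 1 below and 6 called in the 6-library fit. C3, the hub of the cascade, had 146, 340.1 and 144 CPM in sham JV001 and 721, 749 and 1244 CPM in CKD JV001 (log2 fold change 2.11, SE 0.62). Sham JV001 replicate 2 was the highest sham JV001 library for C3, as it was for the summed fibroblast and macrophage markers.

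Antigen presentation genes had 20 of 22 members above and 8 called in the 6-library fit, and the list median was 1.70 (log2 fold change), or 1.38 without CKD JV001 replicate 3. Psmb10, a catalytic subunit of the immunoproteasome, had 20.1, 22.6 and 25.1 CPM in sham JV001 and 37.8, 37.6 and 52.5 CPM in CKD JV001 (0.92, SE 0.16, edgeR adjusted p 0.0647). Psmb9, another such subunit, had 4.98, 4.57 and 2.97 CPM in sham JV001 and 11.9, 12.3 and 30.5 CPM in CKD JV001. H2-Aa, an MHC class II chain, had 20.3, 31.4 and 11.4 CPM in sham JV001 and 69.7, 67.3 and 82.5 CPM in CKD JV001. The class I chain H2-K1 had 181, 178 and 103 CPM in sham JV001 and 375, 366 and 789.8 CPM in CKD JV001, and class I genes are near-copies of each other whose reads the counting could split. In all 4 genes, CKD JV001 replicates 1 and 2 already lay above every sham JV001 library, as they did in 29.7% of all genes tested (24.8% lay below).

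Interferon response genes depended more on CKD JV001 replicate 3. The list of 38 tested genes had a median log2 fold change of 2.11, but 0.59 without CKD JV001 replicate 3, and 1 passed in the 6-library fit (Ifi27l2a, at 9.34, 12.3 and 4.91 CPM in sham JV001 and 24.6, 21.9 and 33.5 CPM in CKD JV001). Its summed level was 798, 603 and 346 CPM in sham JV001 and 876, 882 and 5896 CPM in CKD JV001. In 22 genes the groups did not overlap, all higher in CKD JV001.

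Sting1, the adaptor of cytosolic DNA sensing, had 3.90, 3.28 and 3.64 CPM in sham JV001 and 12.6, 10.8 and 157 CPM in CKD JV001 (log2 fold change 4.06, or 1.69 without CKD JV001 replicate 3). Oasl1, an interferon-induced regulator, had 2.44, 2.92 and 1.48 CPM in sham JV001 and 3.45, 3.02 and 92.6 CPM in CKD JV001 (3.85, or 0.50). Usp18, which damps interferon signalling, had 6.62, 5.05 and 2.27 CPM in sham JV001 and 8.14, 8.81 and 47.7 CPM in CKD JV001 (2.21, or 0.87). Each was highest by far in CKD JV001 replicate 3, and in replicates 1 and 2 Oasl1 and Usp18 lay just above the sham JV001 range.

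An element known from interferon-induced promoters was looked for in this list. Among the 38 genes, 28 had a promoter in the RefSeq table, and 15 of them (53.6%) held the interferon response element, here 2 copies of GAAA on the same strand with 2 bases between them, on either strand in the 250 bases before the start. Over all 27025 genes of the table the share was 3.46%, and 3.19% over the genes tested. The 5 holders with the smallest p are printed 5′ to 3′ along the gene's strand, from RefSeq on GRCm38.p6, whereas the counts were made on GRCm39. Capitals mark the element, which reads as 2 copies of TTTC where it lies on the other strand.
Igtp: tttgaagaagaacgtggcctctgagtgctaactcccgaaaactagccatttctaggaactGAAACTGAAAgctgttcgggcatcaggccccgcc
Gbp2: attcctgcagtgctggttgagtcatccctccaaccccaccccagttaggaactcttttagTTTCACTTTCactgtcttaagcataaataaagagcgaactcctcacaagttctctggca
Ifit3: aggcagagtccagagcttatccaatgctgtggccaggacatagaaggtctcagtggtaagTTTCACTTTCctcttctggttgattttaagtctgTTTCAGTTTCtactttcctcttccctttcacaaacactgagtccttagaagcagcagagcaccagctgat
Trim30a: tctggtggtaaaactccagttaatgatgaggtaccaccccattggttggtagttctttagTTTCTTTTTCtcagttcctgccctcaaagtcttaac
Ifit1: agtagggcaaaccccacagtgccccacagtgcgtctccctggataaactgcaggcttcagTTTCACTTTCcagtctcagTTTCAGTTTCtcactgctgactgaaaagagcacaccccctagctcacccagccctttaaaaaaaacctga

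The printed stretches are chr11:58199462-58199555, chr3:142620544-142620662, chr19:34583313-34583476, chr7:104465194-104465289 and chr19:34640725-34640873 in that order, and all lie in promoters, before the gene's start. Trim30a lies on the minus strand and the others on the plus strand. The first element begins 34, 59, 156, 36 and 104 bases before the start, and Ifit3 and Ifit1 hold 2 copies each. A match describes these letters only and shows no binding.

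Igtp, an interferon-induced GTPase, had 19.7, 16.2 and 10.4 CPM in sham JV001 and 26.3, 25.5 and 182 CPM in CKD JV001. Gbp2, a guanylate-binding protein, had 28.5, 25.9 and 13.1 CPM in sham JV001 and 47.6, 46.3 and 383 CPM in CKD JV001. Ifit1, which binds foreign RNA ends, had 10.8, 6.62 and 2.39 CPM in sham JV001 and 9.40, 8.36 and 238 CPM in CKD JV001. Replicates 1 and 2 of CKD JV001 lay within the sham JV001 range for Ifit1 and above it for Igtp and Gbp2.

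Chemokine, cytokine and NF-kB genes had the same dependence on replicate 3: a median log2 fold change of 2.40, and 0.63 without it, with 24 of 41 above. Selp, the P-selectin that tethers leukocytes, had 0.433, 0.757 and 0.242 CPM in sham JV001 and 1.87, 2.02 and 450.3 CPM in CKD JV001. Icam1, a leukocyte adhesion molecule, had 25.5, 25.4 and 13.0 CPM in sham JV001 and 33.1, 33.5 and 2347 CPM in CKD JV001. Cxcl10, an interferon-induced chemokine, had 2.66, 2.24 and 0.0303 CPM in sham JV001 and 2.44, 1.30 and 219.5 CPM in CKD JV001. These genes reached in CKD JV001 replicate 3 levels not seen in the other 5 libraries, and Cxcl10 was within the sham JV001 range in replicates 1 and 2. The same library had the highest neutrophil and macrophage marker sums and the lowest ventricular sum of the 6, and their part in these values was not tested.

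Some members did not rest on that library. Il33, an alarmin, had 3.31, 3.79 and 3.06 CPM in sham JV001 and 12.7, 11.6 and 17.6 CPM in CKD JV001 (2.04, or 1.84 without CKD JV001 replicate 3, 6-library edgeR adjusted p 0.0333). Ccl5, a T cell chemokine, had 0.124, 0.112 and 0 CPM in sham JV001 and 1.11, 1.01 and 3.29 CPM in CKD JV001 (6-library edgeR adjusted p 0.0447). The NF-kB element was found in 11 of 32 list promoters (34.4%), against 10.8% of tested genes. It was also in 7 of 18 promoters (38.9%) of the citric acid cycle list, whose members lay below.

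**Figure D3:**
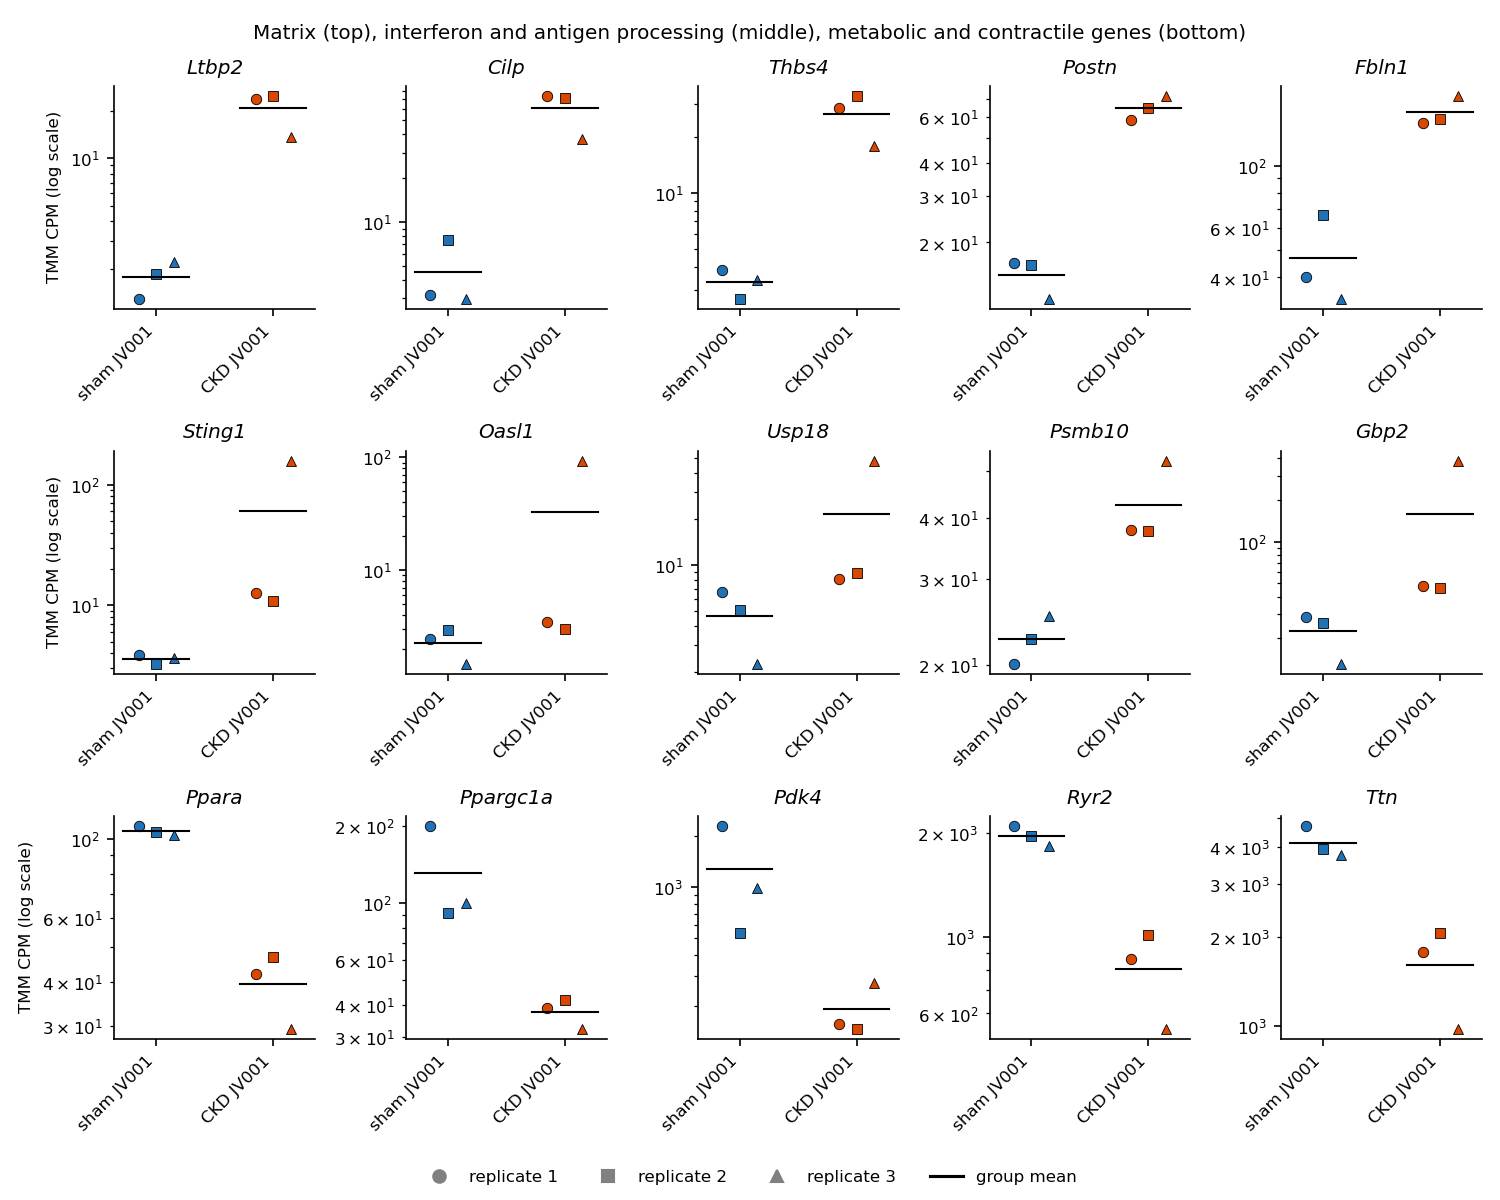
TMM CPM (vertical axes, log scale) of 15 genes in the sham JV001 and CKD JV001 libraries; symbols are replicates and bars are group means. Matrix genes are high in all 3 CKD JV001 libraries, whereas Oasl1 reaches 92.6 CPM in CKD JV001 replicate 3 and stays at 3.45 and 3.02 CPM in the others.

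Contractile genes were lower in CKD JV001. In the sarcomere list, 21 of 31 members lay below and 0 above, and the list median was -0.71 (log2 fold change), or -0.41 without CKD JV001 replicate 3. Ttn, the giant spring protein titin, had 4705, 3928 and 3777 CPM in sham JV001 and 1775, 2062 and 981 CPM in CKD JV001 (-1.36, SE 0.31, edgeR adjusted p 0.0883, 6-library adjusted p 0.0499). Nebl, nebulette of the Z-disc, had 223, 232 and 249.6 CPM in sham JV001 and 105, 117 and 62.2 CPM in CKD JV001 (-1.31, SE 0.30, 6-library edgeR adjusted p 0.0343). These 2 were the sarcomere members that passed in the 6-library fit.

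Calcium handling genes had 16 of 25 members below and 4 above, and 3 passed in the 6-library fit. Ryr2, the calcium release channel, had 2089.9, 1955 and 1837 CPM in sham JV001 and 863, 1015 and 543 CPM in CKD JV001 (-1.28, SE 0.29, 6-library edgeR adjusted p 0.0403). Slc8a1, the sodium-calcium exchanger, had 372, 383 and 407 CPM in sham JV001 and 200.3, 213 and 116 CPM in CKD JV001, and the channel subunit Cacna2d1 had 118, 106 and 137 CPM in sham JV001 and 58.1, 58.6 and 34.7 CPM in CKD JV001. Atp2a2, the pump that refills the sarcoplasmic reticulum, had 16641, 16311 and 16041 CPM in sham JV001 and 9477, 9619 and 4910.5 CPM in CKD JV001. Members above included Itpr1, Itpr2 and Stim1, which serve calcium release and entry in many cell types.

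Ion channel and gap junction genes had 14 of 28 members below. The inward rectifier Kcnj2 had 51.9, 45.9 and 30.3 CPM in sham JV001 and 20.7, 21.2 and 12.5 CPM in CKD JV001, and the acetylcholine-gated channel subunit Kcnj3 had 69.5, 93.6 and 68.1 CPM in sham JV001 and 36.9, 37.0 and 23.2 CPM in CKD JV001. Both passed in the 6-library fit (edgeR adjusted p 0.0481 and 0.0344). Kcnj8, a KATP channel subunit that is also a pericyte marker, was the member above, at 18.6, 14.3 and 14.1 CPM in sham JV001 and 32.9, 33.4 and 75.4 CPM in CKD JV001. Gja1, the gap junction protein connexin 43, overlapped between groups at 175, 278 and 292 CPM in sham JV001 and 239, 241 and 195 CPM in CKD JV001.

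Genes of energy metabolism lay mostly below sham JV001. Members below numbered 25 of 32 for fatty acid uptake and oxidation, 21 of 21 for the citric acid cycle and 21 of 22 for branched-chain amino acid and ketone use. They numbered 26 of 31 for glucose uptake and glycolysis and 41 of 46 for nuclear genes of the respiratory chain. The list medians were -0.76, -0.77, -0.84, -0.57 and -0.62 in the same order. Without CKD JV001 replicate 3 they were -0.49, -0.51, -0.57, -0.32 and -0.33. The ventricular marker median moved with them, at -0.69 and -0.37. Of these 5 lists, Lpl, Acot2, Pdk4 and Ppm1k passed in the 6-library fit. Fabp4, a fatty acid binding protein of the endothelium and of fat, was the fatty acid gene above, at 492, 356 and 397 CPM in sham JV001 and 613, 578 and 719 CPM in CKD JV001.

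The regulators of this programme were among the smallest p-values. Ppara, a nuclear receptor that drives fatty acid oxidation genes, had 108, 105 and 103 CPM in sham JV001 and 41.9, 46.9 and 29.6 CPM in CKD JV001 (-1.42, SE 0.26, edgeR adjusted p 0.0647, 6-library adjusted p 0.0336). Ppargc1a, a coactivator of mitochondrial biogenesis, had 200.2, 91.7 and 101 CPM in sham JV001 and 39.1, 41.9 and 32.4 CPM in CKD JV001 (-1.79, SE 0.33, edgeR adjusted p 0.065, 6-library adjusted p 0.034). Dnm1l, the mitochondrial fission GTPase, had 98.7, 95.9 and 99.2 CPM in sham JV001 and 60.5, 59.1 and 41.0 CPM in CKD JV001 (6-library edgeR adjusted p 0.0403). In the list of mitochondrial regulators and dynamics, 19 of 28 lay below and these 3 passed in the 6-library fit.

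Pdk4, the kinase that shuts pyruvate out of oxidation, had 2287, 539.6 and 994 CPM in sham JV001 and 156, 147 and 272 CPM in CKD JV001 (-2.73, SE 0.51, edgeR adjusted p 0.0674). Its sham JV001 libraries differed several-fold among themselves, yet each lay above every CKD JV001 library. Lpl, which frees fatty acids from lipoproteins, had 5677, 4656 and 5045 CPM in sham JV001 and 2618, 2508 and 1916 CPM in CKD JV001 (-1.13, SE 0.24). Ppm1k, the phosphatase that activates branched-chain ketoacid breakdown, had 93.4, 82.1 and 100.1 CPM in sham JV001 and 44.9, 43.5 and 34.5 CPM in CKD JV001 (-1.17, SE 0.21). Pfkfb3, an activator of glycolysis, lay above, highest in CKD JV001 replicate 3, with 14.4, 15.9 and 7.73 CPM in sham JV001 and 33.2, 35.0 and 1328 CPM in CKD JV001.

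Genes of the mitochondrial genome did not share the direction of the nuclear respiratory chain genes. Their median log2 fold change was 0.31, with 3 of 13 above (ND3, ND6 and COX2), near the 22.9% of all genes. Their share of all counts was 29.0%, 26.4% and 25.5% in sham JV001 and 34.7%, 29.8% and 37.7% in CKD JV001. Single genes were uneven between CKD JV001 replicates 1 and 2, with ND3 at 99.4, 227 and 71.8 CPM and COX3 at 4618, 1014 and 4855 CPM. Nuclear copies of these genes make their counts uncertain.

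**Figure D4:**
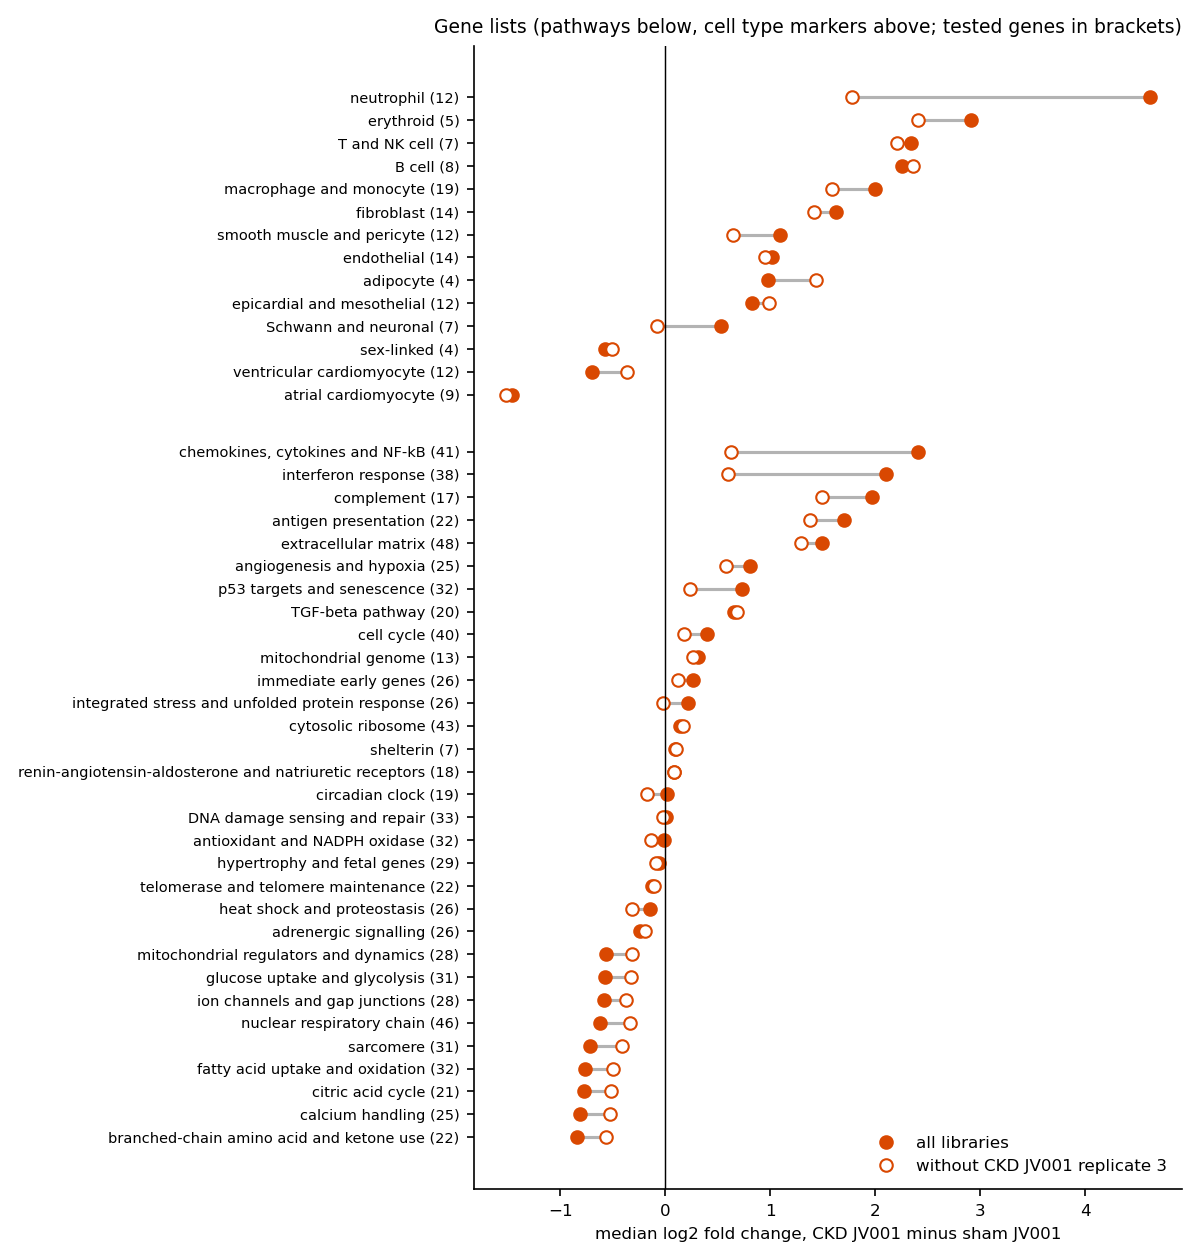
Median log2 fold change of CKD JV001 minus sham JV001 (horizontal axis) for 31 pathway lists and 14 cell type marker lists, with the number of tested genes in brackets. Filled points use all libraries and open points leave out CKD JV001 replicate 3, where the interferon median goes from 2.11 to 0.59 and the extracellular matrix median from 1.50 to 1.29.

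Receptors and enzymes of pressure and salt control split. Ednra, the endothelin receptor A, had 39.1, 40.3 and 42.8 CPM in sham JV001 and 20.7, 20.1 and 23.01 CPM in CKD JV001 (-0.94, SE 0.16, edgeR adjusted p 0.0647, 6-library adjusted p 0.034). Corin, the protease that activates the atrial natriuretic peptide, had 265, 232 and 233 CPM in sham JV001 and 120.1, 114 and 70.4 CPM in CKD JV001 (-1.26, SE 0.26, 6-library edgeR adjusted p 0.034). Ace, which makes angiotensin II, had 51.0, 53.2 and 35.0 CPM in sham JV001 and 129, 127 and 161 CPM in CKD JV001 (1.58, SE 0.52, 6-library edgeR adjusted p 0.0336). Of 18 members tested, 7 lay above and 4 below, including Agtr1a, an angiotensin II receptor, at 25.4, 28.9 and 35.4 CPM in sham JV001 and 22.7, 18.1 and 11.00 CPM in CKD JV001.

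Adrenergic signalling had 12 of 26 members below and 7 above. Pde3a, a phosphodiesterase that degrades cAMP, had 90.0, 87.2 and 89.1 CPM in sham JV001 and 48.0, 52.4 and 38.4 CPM in CKD JV001 (-0.94, SE 0.16, edgeR adjusted p 0.0647). Adra1a, an alpha-1 receptor, had 47.8, 46.0 and 49.6 CPM in sham JV001 and 22.9, 23.9 and 10.2 CPM in CKD JV001, and Pde1c had 78.2, 51.9 and 73.7 CPM in sham JV001 and 26.5, 31.4 and 14.6 CPM in CKD JV001. All 3 had separate groups in the same direction.

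The hypertrophy and fetal genes were split, with a median of -0.06 (log2 fold change), 5 members above and 8 below of 29. Nppb, the B-type natriuretic peptide, had 221, 244 and 238 CPM in sham JV001 and 345, 348 and 34.4 CPM in CKD JV001. Myh7, the slow myosin of the fetal ventricle, had 258, 138 and 295 CPM in sham JV001 and 317, 309 and 47.8 CPM in CKD JV001, and Acta1, skeletal actin, had 204, 105 and 302 CPM in sham JV001 and 612, 601 and 115 CPM in CKD JV001. In all 3 genes CKD JV001 replicates 1 and 2 lay above every sham JV001 library and replicate 3 did not. Gata6, a cardiac transcription factor, had 50.2, 47.4 and 48.7 CPM in sham JV001 and 29.1, 30.3 and 24.0 CPM in CKD JV001 (-0.81, SE 0.17).

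Angiogenesis and hypoxia genes had 12 of 25 above and 7 below. Vegfa, the growth factor that cardiomyocytes supply to vessels, had 451, 451 and 332 CPM in sham JV001 and 201, 210.4 and 78.0 CPM in CKD JV001 (-1.33, SE 0.36). Vegfc, a lymphatic growth factor, had 2.75, 3.56 and 5.39 CPM in sham JV001 and 16.2, 14.4 and 8.51 CPM in CKD JV001 (1.74, SE 0.55, 6-library edgeR adjusted p 0.0379). Dll4, a Notch ligand of the endothelium, had 31.8, 30.4 and 20.3 CPM in sham JV001 and 69.8, 70.2 and 79.8 CPM in CKD JV001, and endothelial markers moved the same way.

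In the circadian clock list, Nr1d1 (REV-ERB alpha, a repressor of the clock) had 58.3, 61.3 and 35.0 CPM in sham JV001 and 133, 132 and 141 CPM in CKD JV001 (1.39, SE 0.25, edgeR adjusted p 0.0647, 6-library adjusted p 0.034). Dbp, a clock output factor, had 39.2, 42.6 and 30.1 CPM in sham JV001 and 124, 121 and 61.6 CPM in CKD JV001. The labels give no hour of collection for these libraries. Over the list, 5 of 19 members lay above, near the 22.9% of all genes, and 2 below (background 20.1%).

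Because the series title speaks of telomeres, the 7 shelterin genes, which cap chromosome ends, were read gene by gene, and none passed in the 12-library or the 6-library fit. Terf1, which binds telomeric DNA, had 4.51, 3.28 and 2.82 CPM in sham JV001 and 3.39, 4.40 and 8.95 CPM in CKD JV001, and Terf2, which also binds it, had 13.4, 10.9 and 14.1 CPM in sham JV001 and 11.8, 12.9 and 12.7 CPM in CKD JV001. Pot1b, a single-strand binder, had 2.60, 3.48 and 2.79 CPM in sham JV001 and 4.62, 5.20 and 6.34 CPM in CKD JV001 (0.87, SE 0.35, edgeR adjusted p 0.149). Pot1b and the bridging protein Acd (7.33, 5.24 and 7.12 CPM in sham JV001 and 8.36, 8.41 and 8.28 CPM in CKD JV001) lay above, and the groups of the other members overlapped except for Terf2ip. Terf2ip (RAP1) lay below, with 18.6, 15.6 and 16.4 CPM in sham JV001 and 15.3, 13.2 and 15.3 CPM in CKD JV001. Pot1a had 8.16, 8.36 and 9.94 CPM in sham JV001 and 7.60, 9.95 and 6.98 CPM in CKD JV001. Tinf2 overlapped as well, with a log2 fold change of 0.10 (SE 0.19). In both fits the smallest adjusted p of the 7 was that of Pot1b.

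Telomerase and telomere maintenance genes had 4 of 22 above and 4 below, near the shares of all genes (22.9% and 20.1%), with a median of -0.13. Wrn, a RecQ helicase, had 4.70, 3.50 and 3.42 CPM in sham JV001 and 9.09, 9.31 and 10.6 CPM in CKD JV001 (1.32, SE 0.39, 6-library edgeR adjusted p 0.034). DNA damage sensing and repair genes had 2 above and 9 below of 33, among them Rif1, which shields broken ends, at 23.2, 24.2 and 21.4 CPM in sham JV001 and 15.3, 13.6 and 16.1 CPM in CKD JV001.

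Among p53 targets and senescence genes, 10 of 32 lay above and 4 below, and the median of 0.73 was 0.24 without CKD JV001 replicate 3. Cdkn1a, the cell cycle inhibitor p21, had 81.4, 49.3 and 29.2 CPM in sham JV001 and 34.3, 29.6 and 307 CPM in CKD JV001, high only in that library. Igfbp7, a secreted insulin-like growth factor binder, had 70.7, 69.4 and 65.0 CPM in sham JV001 and 158, 154 and 336 CPM in CKD JV001 (1.66, SE 0.51, 6-library edgeR adjusted p 0.0408). In the cell cycle list, 10 of 40 lay above, near the 22.9% of all genes, and 1 below (background 20.1%). The list median was 0.40, or 0.18 without CKD JV001 replicate 3. Cenpf was the member below, while the replication helicase subunit Mcm6 had 6.65, 6.70 and 7.30 CPM in sham JV001 and 12.2, 14.5 and 19.1 CPM in CKD JV001. Mki67 had 5.13, 2.36 and 3.36 CPM in sham JV001 and 1.77, 2.44 and 15.4 CPM in CKD JV001.

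Stress lists were mixed, with 8 above and 10 below of 32 antioxidant and NADPH oxidase genes, and 3 above and 3 below of 26 genes of the unfolded protein response. Of heat shock and proteostasis genes, 5 of 26 lay below, near the 20.1% of all genes, and 0 above (background 22.9%). Hspa1b, an inducible HSP70, had 93.7, 77.0 and 40.6 CPM in sham JV001 and 58.1, 54.0 and 923 CPM in CKD JV001, high in CKD JV001 replicate 3. Atf6, a sensor of unfolded protein, had 180.2, 135 and 143 CPM in sham JV001 and 84.1, 85.2 and 65.9 CPM in CKD JV001 (-0.96, SE 0.19, 6-library edgeR adjusted p 0.0352). Sod3, an extracellular superoxide dismutase, had 17.9, 20.7 and 13.3 CPM in sham JV001 and 43.9, 42.2 and 58.0 CPM in CKD JV001 (1.47, SE 0.35, 6-library edgeR adjusted p 0.034). Cytosolic ribosome genes had 20 of 43 above with a median of only 0.15, and immediate early genes had 2 of 26 above, Egr2 and Klf2.

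The last comparison asked whether the CKD effect under JV001 differed from that under saline (CKD saline against sham saline). The difference passed edgeR's test in 0 of 15004 genes (0%), with a smallest adjusted p of 0.840. At an unadjusted p under 0.05 edgeR had 567 genes (3.78%), fewer than the 750.2 expected if no gene differed. DESeq2 gave 0 calls, and limma voom with quality weights gave 10 higher and 10 lower. Under saline alone edgeR called 0 genes, and its 743 genes at an unadjusted p under 0.05 were also fewer than those 750.2. The saline groups did not overlap in 4.12% of genes higher and 6.44% lower, against 22.9% and 20.1% under JV001. These shares were not tested against each other. CKD saline replicate 3 stood apart from its group, at 62.5 on the first principal component against -51.5 and -50.1. So did sham saline replicate 1, at -0.586 against -67.3 and -74.5.

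The genes with the smallest p of the difference included Tmem100 and Lgals4. Tmem100 had 14.6, 13.4 and 14.2 CPM in sham saline and 12.1, 13.0 and 9.77 CPM in CKD saline, so each sham JV001 library lay above the other 9, and the saline groups did not overlap. Its log2 difference of effects was -1.18 (SE 0.23, unadjusted p 0.000339 by edgeR, adjusted p 0.840). The other called genes had groups that did not overlap under saline either, lower in CKD. Cenpf had 24.9, 37.5 and 27.7 CPM in sham saline and 10.7, 10.2 and 9.49 CPM in CKD saline (log2 difference of effects -0.51, SE 0.36). Tmem82 had 16.0, 18.3 and 18.0 CPM in sham saline and 13.4, 14.1 and 12.4 CPM in CKD saline (-1.02, SE 0.24). By edgeR, neither passed under saline or in the test of the difference.

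Lgals4 had 28.6, 46.6 and 58.3 CPM in sham saline and 35.8, 39.0 and 40.1 CPM in CKD saline, groups that overlap. Its log2 difference of effects was -1.59 (SE 0.35).

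Angptl7, a secreted angiopoietin-like protein, had 1.41, 0.53 and 0.881 CPM in sham saline and 0.555, 0.594 and 1.31 CPM in CKD saline, against 0.68, 0.449 and 0.242 CPM in sham JV001 and 5.22, 3.55 and 2.91 CPM in CKD JV001. Xpnpep2, an aminopeptidase, had 3.02, 1.22 and 1.14 CPM in sham saline and 0.481, 0.528 and 0.357 CPM in CKD saline, against 0.866, 0.449 and 0.606 CPM in sham JV001 and 2.15, 2.23 and 1.09 CPM in CKD JV001. Angptl7 had separate groups under JV001 and overlapping groups under saline, and Xpnpep2 had separate groups in opposite directions. The adjusted p of the difference was 0.840 for each by edgeR.

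Several list medians of the saline comparison depended on a single library. The extracellular matrix list had 0.41 under saline and 1.50 under JV001, but its saline sums were 3566, 2184 and 1759 CPM in sham and 2182, 2189 and 5310.2 CPM in CKD, and without CKD saline replicate 3 the median was -0.38. Leaving out each saline library in turn gave -0.38 to 0.98. Fibroblast markers had 0.68 and 1.62, with saline sums of 1239, 840.1 and 328 CPM in sham and 671, 695 and 2635 CPM in CKD, and the saline median was -0.23 without CKD saline replicate 3 (range -0.23 to 1.16 over the libraries left out). The citric acid cycle list had -0.17 and -0.77, and its saline median was 0.08 without CKD saline replicate 3 (range -0.31 to 0.08). In all 3 lists the saline direction thus turned without that library.

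The atrial and epicardial medians depended on sham saline replicate 1. Atrial markers had -3.08 under saline and -1.46 under JV001, with saline sums of 4455, 421 and 1502 CPM in sham and 329, 327 and 209.9 CPM in CKD, and the saline median was -1.75 without sham saline replicate 1 (range -3.603 to -1.75). Epicardial and mesothelial markers had -1.05 and 0.83, with saline sums of 186, 23.4 and 43.7 CPM in sham and 31.4, 30.5 and 71.6 CPM in CKD. Without sham saline replicate 1 that saline median was 0.51 (range -1.54 to 0.51), the opposite sign. No list member passed the test of the difference.

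**Figure D5:**
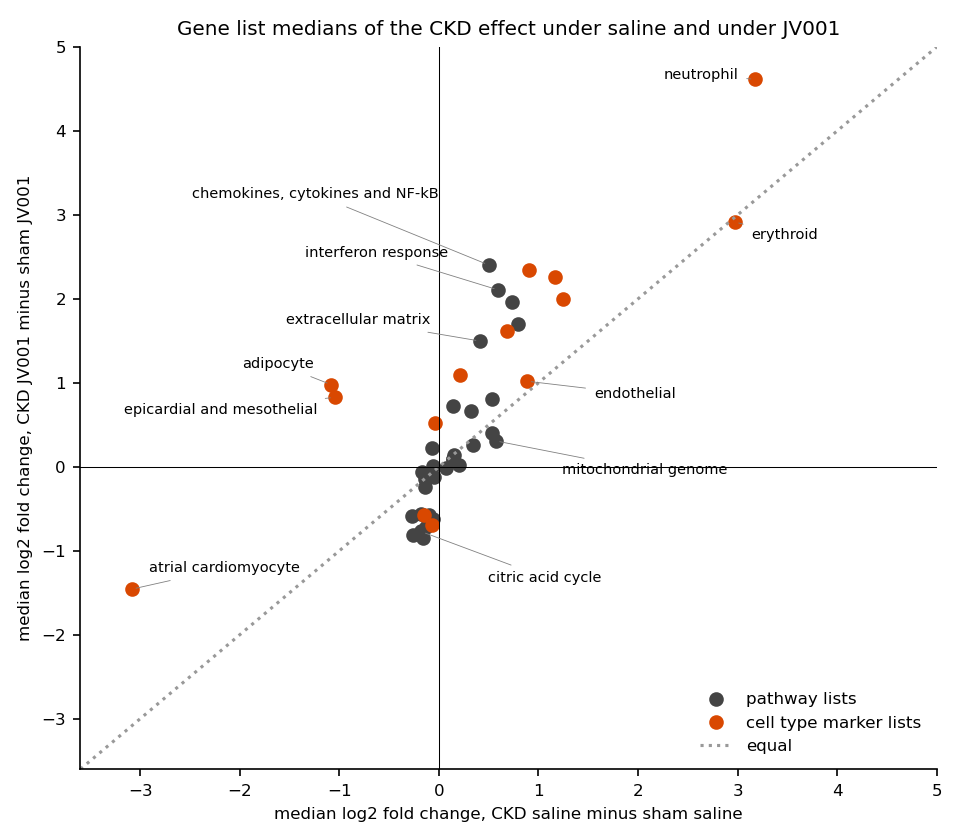
Median log2 fold change of each gene list for CKD against sham under saline (horizontal axis) and under JV001 (vertical axis); the dotted line marks equal values. The extracellular matrix list lies at 0.41 under saline and 1.50 under JV001, and atrial markers lie at -3.08 and -1.46; without CKD saline replicate 3 the first saline value is -0.38, and without sham saline replicate 1 the second is -1.75.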

How the data were processed

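Polyadenylated RNA of isolated mouse cardiomyocytes was sequenced in 12 libraries, 4 groups of 3. Libraries were made with the VAHTS Universal V6 kit from RNA of the RNeasy mini plus kit, per the labels' protocols. The submitters' processing notes name fastp, HISAT2, HTSeq and GRCm39. Their versions, the strand setting and the counting mode are not stated there. The deposited table gives raw read counts per gene and, beside them, FPKM values that the authors computed. No column was left unused for want of a sample.

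Members and gene lists were chosen with earlier results of these data known. Counts as deposited were tested with edgeR 4.0.16 in R 4.3.3: genes passing filterByExpr (minimum count 10), TMM factors, a quasi-likelihood fit of the 4 groups over 12 libraries without a block, Benjamini-Hochberg adjusted p under 0.05. Log2 fold changes came from the edgeR fit at its default prior count, and log2 CPM values used a prior count of 2. The same code was tested on simulated data. The groups of a gene were called separate where the 3 CPM values of a group all lay above those of the other.

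Alternatives were RLE factors, other filters, DESeq2 1.42.0, the 6 compared libraries alone, a replicate block, mitochondrial and haemoglobin genes left out, limma 3.58.1 on log2(FPKM + 1) and log2(FPKM + 0.1) with a minimum FPKM of 0.5 or no filter, robust spread, voom with quality weights, and each library left out. The whole-number counts were the main measure, since FPKM understates changes of low genes on a log2 scale with a pseudocount.

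Named genes were up to 15 higher and 15 lower among called genes with separate groups and a mean of at least 1 CPM, the same without CKD JV001 replicate 3, up to 6 members of each list by adjusted p, all shelterin genes and, where fewer than 5 passed, the 5 with the smallest p. Genes named Gm plus a number, LOC, Rik or -ps were left out of the first, second and last of these. Col1a1, Col3a1, Ccn2, H2-Aa, H2-K1, Ifi27l2a, Ifit1, Icam1, Cxcl10, Atp2a2, Gja1, Agtr1a, Nppb, Myh7, Acta1, Cdkn1a and Mki67 fall outside that rule and were chosen after their values were seen. Of the 45 lists, 990 of 1002 symbols were in the table and 961 passed the filter. Values of overlapping genes, antisense partners and near-identical copies are uncertain. Promoters came from the RefSeq table for GRCm38.p6, matched by symbol, and were not read at GRCm39 coordinates. A few genes that the rule names are not reported here.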

Additional observations from a re-analysis of the deposited data

How the results depend on the processing

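Calls in CKD JV001 against sham JV001 (0 higher and 3 lower) were 1 higher and 6 lower with RLE factors, 1 and 4 without a filter and 1 and 11 with a stricter one. They were 1050 and 718 by DESeq2, 593 and 199 on the 6 compared libraries, 1 and 6 without mitochondrial and haemoglobin genes, 1 and 7 with a robust spread and 2525 and 1909 with voom and quality weights. With limma on FPKM they were 49 and 25 (pseudocount 1), 6 and 4 (pseudocount 0.1) and 9 and 7 (pseudocount 1, no filter). Leaving out each library in turn gave 0 to 874 higher and 0 to 738 lower, the highest without CKD saline replicate 3. Leaving out replicate 3 of both CKD groups gave 577 and 856. Summing replicates 1 and 2 of each CKD group, an alternative chosen after seeing the data, gave 0 and 0. The difference of the effects gave 0 calls in each direction, and 10 higher and 10 lower with voom. The causes were not tested.

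With the replicate number as a block, 0 genes were called higher and 0 lower. Same-numbered samples correlated at -0.10, -0.14 and -0.31 in their deviations. With 3 libraries a group, deviations from the group means are tied to each other. These values therefore cannot tell whether the numbers mark pairs, and the labels do not say.

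Among log2 fold changes of named genes, 22 values changed sign. With voom, without CKD JV001 replicate 3 and without replicate 3 of both CKD groups, Hsph1 gave -0.14, -0.24 and -0.25, Hspa1b -0.18, -0.33 and -0.34, Kcna1 -0.084, -0.16 and -0.16, and Sox10 -0.68, -0.77 and -0.78. In the last 2 settings Maff gave -0.16 and -0.17. Pot1a gave 0.011 with voom, and Tinf2 gave -0.015 without sham JV001 replicate 3. Terf2 gave 0.047 and 0.062 on FPKM with pseudocounts 1 and 0.1, 0.047 without a filter, and 0.0012, 0.032 and 0.017 without sham JV001 replicate 1, sham JV001 replicate 3 and CKD JV001 replicate 1. Over the libraries left out in turn, the ranges were -0.24 to 2.18 for Hsph1, -0.33 to 2.83 for Hspa1b, -0.16 to 2.14 for Maff, -0.16 to 0.84 for Kcna1, -0.77 to 0.81 for Sox10, -0.015 to 0.19 for Tinf2 and -0.13 to 0.032 for Terf2. Of the other values of named genes and list medians, 7087 stayed on their side of the threshold with the same sign or within the spread. For named genes 781 passed the threshold, and 35, all of Tmem100, Tmem82 or Cenpf, no longer passed. Another 77 values, all list medians, moved beyond the spread, most often for adrenergic signalling (10) and p53 targets and senescence (7). At this depth 3 reads are worth 0.0841 to 0.0928 CPM in sham JV001, which limits the values of the lowest genes.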
